A study of Mus musculus with 8 samples.

Results

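In mouse, genes of the mitochondrial ribosomal proteins carry symbols that begin with Mrpl, after the large subunit, or Mrps, after the small subunit. Members were taken from the expression table and grouped by symbol alone, and the subunit that holds each protein was not checked. Of 14954 genes in the table, 78 carried such a symbol, 49 Mrpl and 29 Mrps. All 78 were found in the GENCODE annotation of GRCm38, where 77 are protein-coding and 1, Mrpl48-ps, is a pseudogene. The RNA came from 8 cultures of A2 lox.Cre Bcl6 cells, a mouse embryonic stem cell line whose Bcl6 transgene is switched on by doxycycline, and poly(A) RNA was read with a stranded kit. The stem cells had been kept on irradiated mouse embryonic fibroblasts and were then driven towards cortical progenitors in a defined medium, to which the hedgehog blocker cyclopamine was added at 400 ng/ml from day 2. At day 12, 4 control cultures had received DMSO and 4 induced cultures had received 1 µg/ml doxycycline, each for 24 h, and both groups carry the transgene. The labels number the differentiations 1 to 4 in each group, describe a single line and say no more on how separate the cultures were, so a p-value measures the spread between these 8 libraries. The samples include no culture that received doxycycline without the transgene, so Bcl6 and doxycycline cannot be told apart here.

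Mitochondria keep their own ribosome, which makes the few membrane proteins of the respiratory chain and ATP synthase that mitochondrial DNA encodes. Its RNAs come from mitochondrial DNA, while its proteins are encoded in the nucleus, made in the cytosol and imported; some descend from bacterial ribosomal proteins and others are found only in mitochondria. Doxycycline is a tetracycline antibiotic, and drugs of this class bind the small subunit of bacterial ribosomes and also slow translation in mitochondria.

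The libraries held 9418864 to 9738177 gene reads in the controls and 10331799 to 15022994 in the induced group, as recovered from the scaled values. Bcl6 itself lay at 6.01 to 7.12 CPM, the reads of a gene per 1000000 reads of its library, in the controls and at 325 to 427 CPM in the induced libraries, which matches the labels. Against the label of cortical progenitors, the progenitor markers Sox1, Sox2, Nes, Pax6, Otx2, Vim, Fabp7 and Hes5 were all found, and the pluripotency gene Pou5f1 lay at 456 to 614 CPM in the controls. Of the 8 progenitor markers 5 were called lower in the induced group and 0 higher, and their summed level was 1496 to 1936 CPM in the controls and 1083 to 1406 CPM in the induced libraries. Of 7 neuron markers 5 were called higher and 0 lower, with a summed level of 735 to 888 CPM against 1192 to 1437 CPM. Of 7 pluripotency markers 4 were called higher and 1 lower, with a summed level of 1910 to 2116 CPM against 1785 to 2087 CPM. Of 7 fibroblast and 5 endoderm markers limma called 0, with 3 and 2 at an unadjusted p under 0.05. Without control 1 these counts were the same for every list but the progenitor markers, of which 4 were called lower. No marker was at 0 in any library. Any part of these shifts in the Mrp values was not tested, and in bulk RNA fewer cells of a type and less RNA per cell cannot be told apart.

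Apart from control 1, the summed Mrp level differed little between libraries. The summed level of the 78 genes was 4498, 3562, 3331 and 3380 CPM in controls 1 to 4 and 3565, 3582, 3512 and 3375 CPM in induced libraries 1 to 4. Control 1 was high, and the other 7 libraries lay within a narrow band in which the groups overlapped. The mean sum was 3693 CPM ± 546 (SD, n = 4) in the controls, 3424 CPM ± 122 (SD, n = 3) in controls 2 to 4, and 3509 CPM ± 94.1 (SD, n = 4) in the induced group. The ratio of summed Mrps to summed Mrpl level was 0.451 to 0.459 in the controls and 0.446 to 0.469 in the induced libraries.

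Control 1 stood apart from every other library in these genes. It had the highest level of the 8 libraries in 74 of the 78 genes (94.9%), against 4178 of all 14954 genes (27.9%); the exceptions were Mrpl50, Mrps18b, Mrps2 and Mrps5. On the log2 scale, with each gene's mean over controls 2 to 4 set to 0, the median Mrp gene stood at 0.44 in control 1 and at 0.071, -0.046 and -0.020 in controls 2 to 4. In the induced libraries the same median was 0.069, 0.078, 0.044 and -0.001. The median over all genes in control 1 was 0.038. The offset of control 1 differed between related lists. Its median was 0.46 for the 5 ribosome proteins with other symbols. For the 16 import genes it was 0.33, and control 1 was the highest library in 15 of them. The median was 0.28 for stress response genes, 0.27 for ribosome assembly factors and 0.14 for translation factors. It was 0.071 to 0.085 for aminoacyl-tRNA synthetases, biogenesis regulators and genes of mitochondrial DNA maintenance and transcription. For the mRNAs encoded by mitochondrial DNA it was -0.20.

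**Figure D1:**
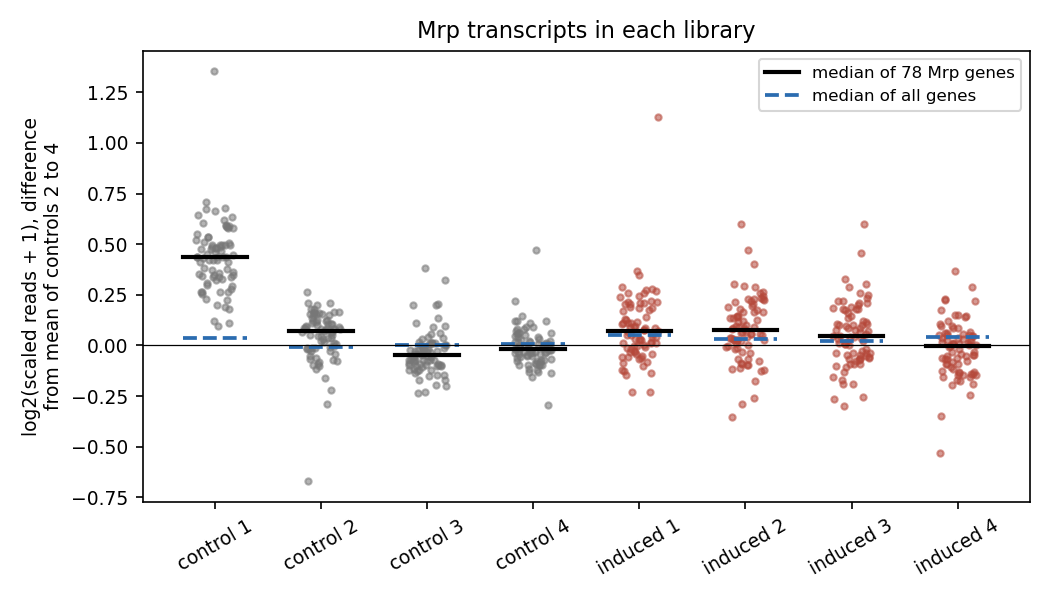
Each point is 1 of the 78 Mrp genes in 1 library, as the difference on the log2 scale from that gene's mean over controls 2 to 4; black bars are the Mrp medians and dashed bars the medians of all genes. The Mrp median stands at 0.44 in control 1 and between -0.046 and 0.078 in the other 7 libraries.

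Mrp transcripts are short. Their median length was 1148 bases, against 2482 bases over all genes, and 16.9% of all genes were shorter than that median. Across 11856 genes, Spearman's rho between transcript length and the deviation of control 1 from the mean of all controls was -0.63. It was 0.15 to 0.48 in controls 2 to 4. Control 1 is part of that mean, so the values of controls 2 to 4 are tied to its own and show no separate trend. Among the 78 Mrp genes, with deviations from the mean of controls 2 to 4, rho between length and the deviation of control 1 was -0.36. In the other 7 libraries rho lay between -0.13 and 0.05. Genes of 1 library share its depth and preparation, and these correlations describe the libraries only. Split by length into 3 groups of 26, the Mrp genes had a median offset in control 1 of 0.48, 0.44 and 0.34 on the log2 scale from the shortest group to the longest. Comparisons were therefore made with and without control 1.

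In limma's test over all 8 libraries, 0 of the 78 Mrp genes were called higher and 0 lower at an adjusted p under 0.05 (Benjamini-Hochberg over 14954 genes), where 6.81% of all genes were called (4.55% higher and 2.26% lower). With limma array weights, which weight libraries by their spread, 2 were called higher and 1 lower, where 16.8% of all genes were called. At an unadjusted p under 0.05 there were 5, 1 higher and 4 lower, against 23.7% of all genes. The median log2 fold change of induced against control was -0.067 for the Mrp genes and 0.031 for all genes. The lowest single value was -0.29 for Mrpl47, which encodes a large-subunit protein of bacterial origin, and the highest was 0.20 for Mrps2, a small-subunit protein of bacterial origin. Of the 78 values 25 were above 0 and 53 below.

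Without control 1, 2 genes were called higher and 0 lower, where 11.3% of all genes were called (7.66% higher and 3.68% lower). At an unadjusted p under 0.05 there were 9, 8 higher and 1 lower, against 28.3% of all genes. The median log2 fold change was 0.026, against 0.035 for all genes. Under 2 other scalings of these libraries both medians were below 0. The Mrp median was -0.014 with median-of-ratios, against -0.005 for all genes, and -0.020 with upper quartile scaling, against -0.011. The fold change of all 78 genes was higher without control 1 than with it, and 26 genes changed sign. The median standard error fell from 0.12 to 0.080 on the log2 scale.

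The intervals lay inside 1.5-fold for nearly every member. With 8 libraries, the 95% interval lay inside 1.5-fold in either direction for 75 of the 78 genes (96.2%, against 63.9% of all genes); the exceptions were Mrpl47, Mrpl48-ps and Mrps34. Without control 1 it lay inside 1.5-fold for 77 of 78 (98.7%, against 66.9% of all genes), with Mrps34 the exception. It lay inside 1.25-fold for 29 with 8 libraries (37.2%, against 27.0% of all genes). Without control 1 that count was 52 (66.7%, against 36.4%). Changes under 1.25-fold were thus not resolved for many of these genes at this number of libraries. A transcript's level says nothing of the level of its protein or of translation in mitochondria, which were not measured.

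**Figure D2:**
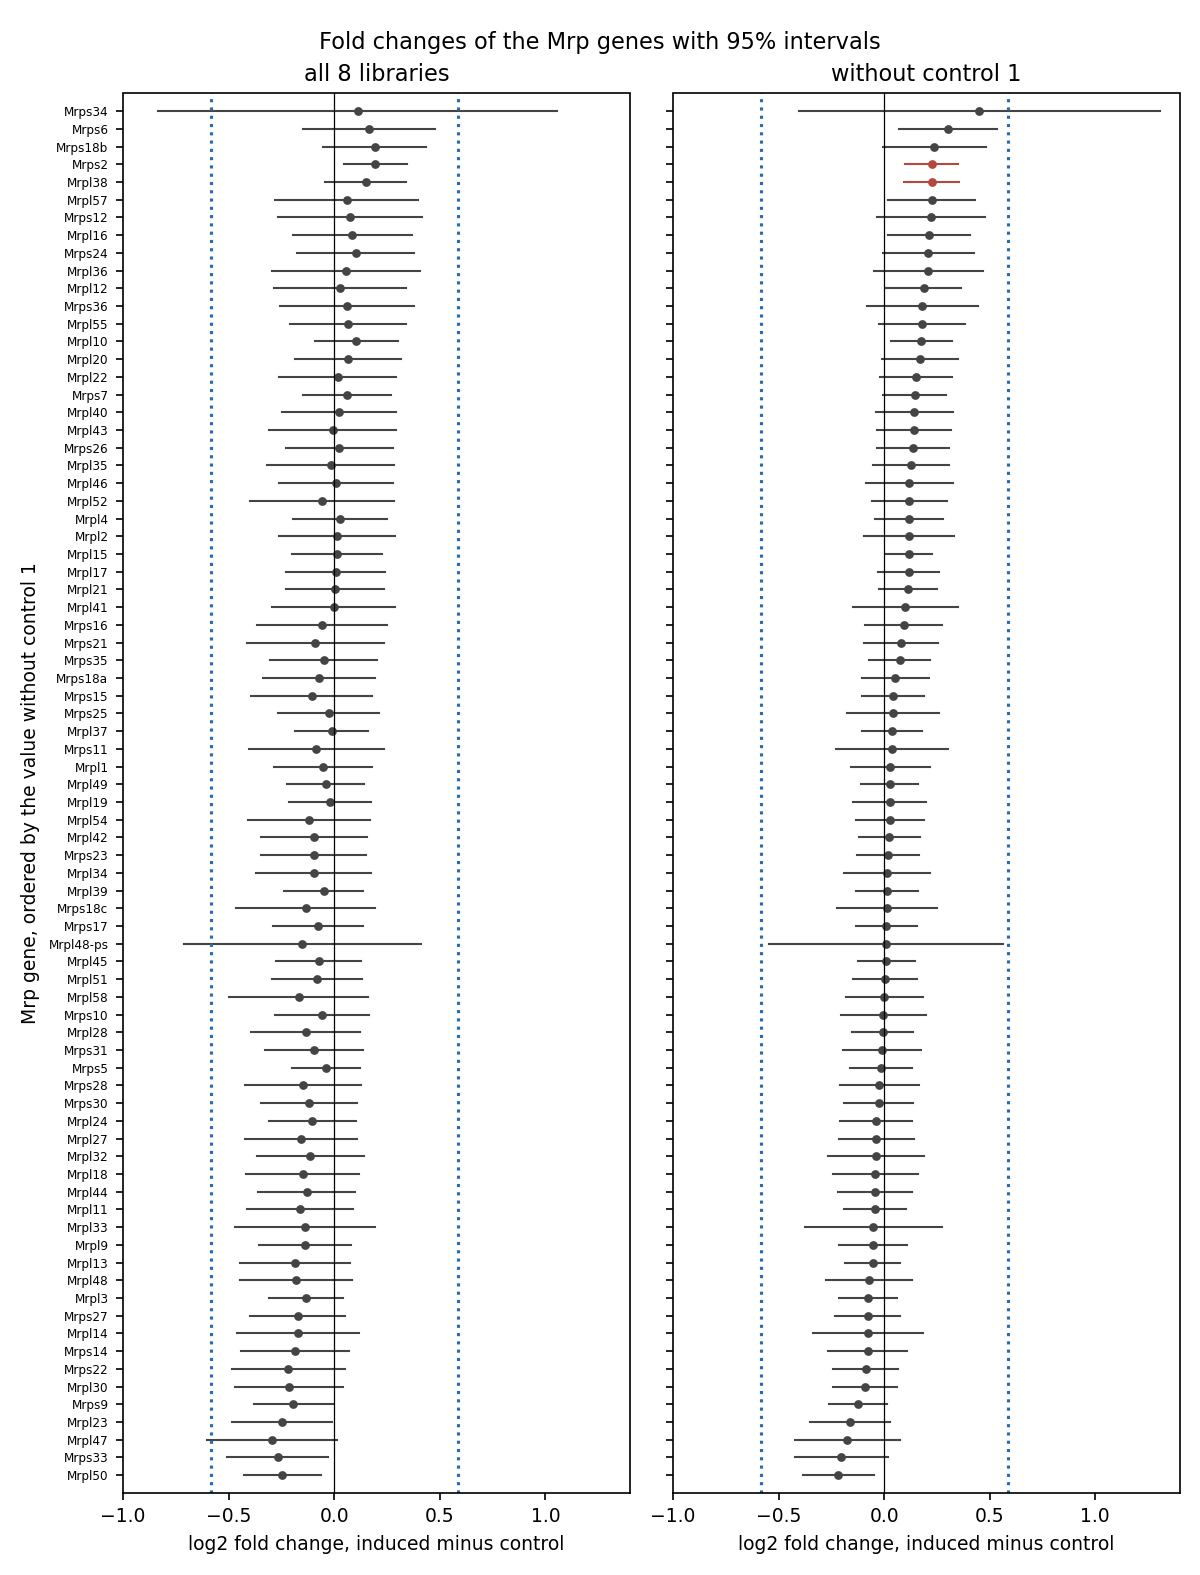
Points are the log2 fold changes of the 78 Mrp genes (induced minus control) and lines their 95% intervals, with all 8 libraries on the left and without control 1 on the right; red marks an adjusted p under 0.05 and dotted lines mark 1.5-fold. Every gene lies farther right without control 1, and Mrps2 and Mrpl38 are the 2 called.

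The 49 Mrpl genes had a median log2 fold change of -0.057 with 8 libraries and 0.026 without control 1, and the 29 Mrps genes -0.074 and 0.041. The 45 genes classed as of bacterial origin stood at -0.059 and 0.028, and the 30 classed as specific to mitochondria at -0.054 and 0.032. Mrpl48-ps, Mrpl58 and Mrps28 were not classed. The classes came from general knowledge, and whether the protein of each member is part of the ribosome was not checked. No test of the difference between these groups was made.

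Both called genes rose by less than 1.2-fold. Mrps2 (chr2:28468066-28471178, plus strand) lay at 80.3, 70.0, 74.5 and 76.9 CPM in controls 1 to 4 and at 89.0, 85.5, 84.2 and 86.2 CPM in induced libraries 1 to 4. Every induced library was above every control, control 1 included. Its log2 fold change was 0.20 ± 0.068 (SE) with 8 libraries (limma adjusted p = 0.113) and 0.23 ± 0.057 without control 1 (limma adjusted p = 0.0306). With control 1 and 1 further library left out, it was called in 2 of 7 fits, those without control 4 and without induced 4, and limma's adjusted p ran from 0.0441 to 0.10, the highest without induced 1. Without control 1 it also missed the threshold under median-of-ratios (limma adjusted p = 0.0575) and upper quartile scaling (limma adjusted p = 0.063), as Mrpl38 did (limma adjusted p = 0.0727 and 0.0738).

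Mrpl38 (chr11:116131817-116138868, minus strand), a protein of the large subunit with no bacterial counterpart, lay at 68.8, 55.05, 57.0 and 54.7 CPM in controls 1 to 4 and at 67.3, 65.0, 66.1 and 61.7 CPM in induced libraries 1 to 4. Control 1 was the highest of all 8 libraries, and controls 2 to 4 lay below all 4 induced libraries. Its log2 fold change was 0.15 ± 0.087 (SE) with 8 libraries (limma adjusted p = 0.324) and 0.23 ± 0.059 without control 1 (limma adjusted p = 0.034). With a further library left out it was called in 1 of 7 fits, that without induced 4, with limma's adjusted p from 0.0273 to 0.111, the highest without induced 1. With each library's trend on length and GC content taken off and control 1 left out, its log2 fold change was 0.097 (limma adjusted p = 0.295), while that of Mrps2 was 0.20 (limma adjusted p = 0.0378).

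Few Mrp genes had groups that did not overlap. With 8 libraries, every induced library was above every control in 2 Mrp genes, Mrps18b and Mrps2 (2.6%, against 10.8% of all genes), and below every control in 2, Mrpl50 and Mrps9 (2.6%, against 6.32%). Without control 1 the counts were 9 above (11.5%, against 16.3%) and the same 2 below (against 9.13%). The 9 were Mrpl10, Mrpl15, Mrpl21, Mrpl38, Mrps18b, Mrps2, Mrps26, Mrps6 and Mrps7.

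Mrpl50 (chr4:49512596-49521093, minus strand), a large-subunit protein specific to mitochondria, had the lowest fold change without control 1. It lay at 84.9, 87.9, 73.6 and 75.3 CPM in controls 1 to 4 and at 67.0, 64.3, 73.4 and 66.4 CPM in induced libraries 1 to 4. The groups were separated by a narrow gap between control 3 and induced 3. The log2 fold change of Mrpl50 was -0.24 ± 0.082 (SE) with 8 libraries (limma adjusted p = 0.101) and -0.22 ± 0.077 without control 1 (limma adjusted p = 0.0943). Mrps9, a small-subunit protein of bacterial origin, lay at 73.7 to 95.3 CPM in the controls and 69.4 to 73.6 CPM in the induced libraries, also with no overlap. Its log2 fold change was -0.19 with 8 libraries (limma adjusted p = 0.20) and -0.12 without control 1 (limma adjusted p = 0.225).

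**Figure D3:**
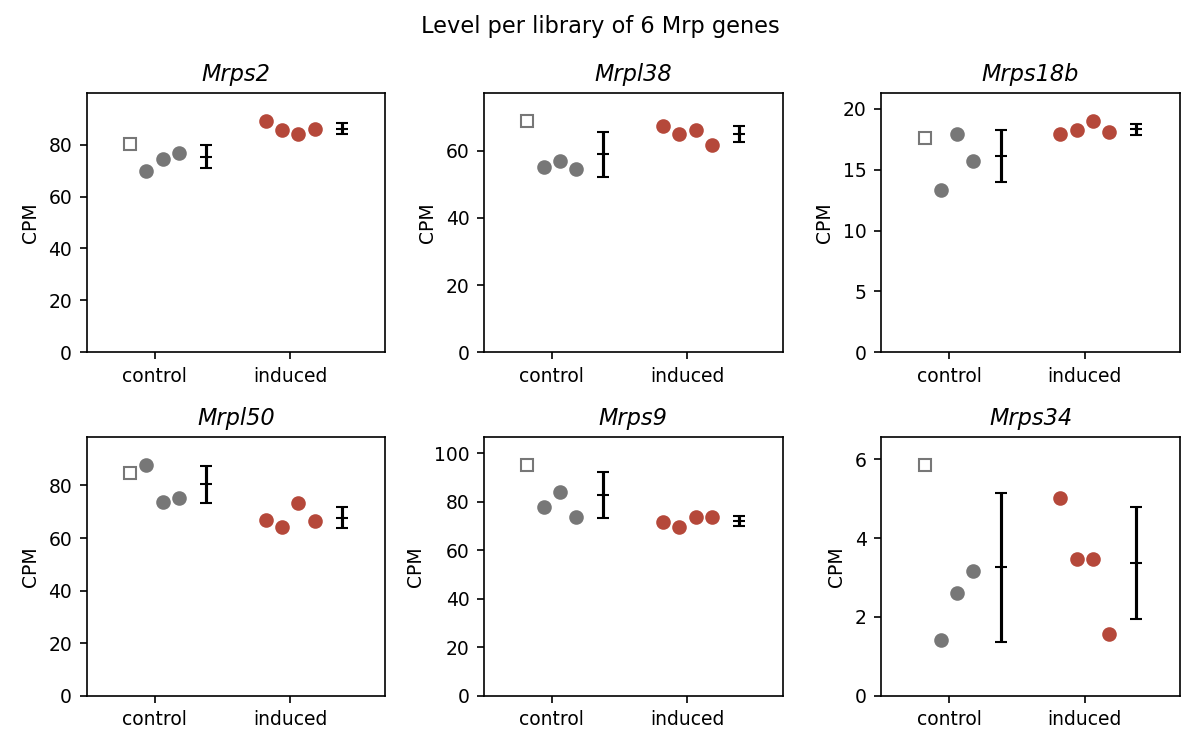
CPM of 6 Mrp genes in each library, on axes that start at 0; the open square is control 1 and bars are the mean ± SD of 4 libraries per group. Induced libraries lie above all controls in Mrps2 and Mrps18b and below all controls in Mrpl50 and Mrps9.

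The remaining genes at the ends of the range did not pass the test in either fit. At the lower end, Mrpl47 had 57.1, 49.1, 37.1 and 37.7 CPM in controls 1 to 4 and 34.9, 41.6, 33.3 and 35.9 CPM in the induced libraries. Controls 1 and 2 were high and the other 2 controls lay within the induced range, and the log2 fold change was -0.29 with 8 libraries and -0.17 without control 1. Mrps33 (-0.27 and -0.20), Mrpl23 (-0.25 and -0.16), Mrps22 (-0.22 and -0.088) and Mrpl30 (-0.21 and -0.091) also had values among the 6 lowest in at least 1 fit. Mrpl23, a bacterial-type protein of the large subunit, passed the test with 8 libraries once the trend on length and GC content was removed (limma adjusted p = 0.0493). With that trend removed and control 1 left out, it missed the threshold (limma adjusted p = 0.0509). At the upper end, Mrps6, a small-subunit protein of bacterial origin, lay at 21.2, 15.3, 13.04 and 15.2 CPM in controls 1 to 4 and at 16.4 to 19.2 CPM in the induced libraries. Its log2 fold change was 0.16 with 8 libraries and 0.30 without control 1 (limma adjusted p = 0.0898), and some of its exon bases are shared with Slc5a3 and Gm49711 on the same strand, so its counts are uncertain. Mrps18b (0.19 and 0.24), Mrpl57 (0.059 and 0.22) and Mrpl10 (0.10 and 0.18), a stalk protein of the large subunit, had values above 0 in both fits and missed the threshold.

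Mrps34 (chr17:24895116-24897502, plus strand) had the highest fold change without control 1 and the widest interval. It lay at 5.86, 1.403, 2.61 and 3.16 CPM in controls 1 to 4 and at 5.01, 3.46, 3.46 and 1.55 CPM in the induced libraries, from 13 to 75 reads per library. The groups overlapped, and both held libraries at the top and at the bottom of the range. The fold change of Mrps34 on the log2 scale was 0.11 with 8 libraries and 0.45 without control 1, where the 95% interval ran from -0.40 to 1.30. In the annotation, 77.8% of its exon bases are shared with other genes, Nme3 on the same strand and Mapk8ip3 on the opposite strand, so its counts are uncertain.

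The members differed widely in level. Per kilobase of transcript and averaged over 8 libraries, the median Mrp gene had 33.0 CPM per kb, against 11.2 over all genes, and the middle 50% lay between 21.9 and 54.2. The highest was Mrpl42, a large-subunit protein specific to mitochondria, at 121.9 CPM per kb. Mrpl30 followed at 104.7, Mrpl20 at 98.5 and Mrpl52 at 95.3 CPM per kb. The lowest were Mrps34 at 3.61, Mrpl48-ps at 4.88, Mrps25 at 5.96 and Mrps26 at 6.53 CPM per kb, so the range spanned 33.8-fold. Mrpl genes had a median of 37.0 and Mrps genes of 27.2 CPM per kb.

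Levels per length were lower in members whose exons are shared with other genes. The exons of 32 of the 78 genes overlap those of another gene. The 9 with at least 20% of their exon bases shared had a median of 21.5 CPM per kb, and the 46 with no overlap had 44.2; over the 78 genes Spearman's rho between the shared percentage and the level per kb was -0.41. Mrps25 shares 69.8% of its exon bases with Nr2c2 on the opposite strand. Whether strand was used in counting is not given in the sources used here, and the part of overlap in these levels was not tested. Mrpl48-ps, at 2.20 to 4.46 CPM, is a pseudogene copy of Mrpl48, and reads may be split between such copies.

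**Figure D4:**
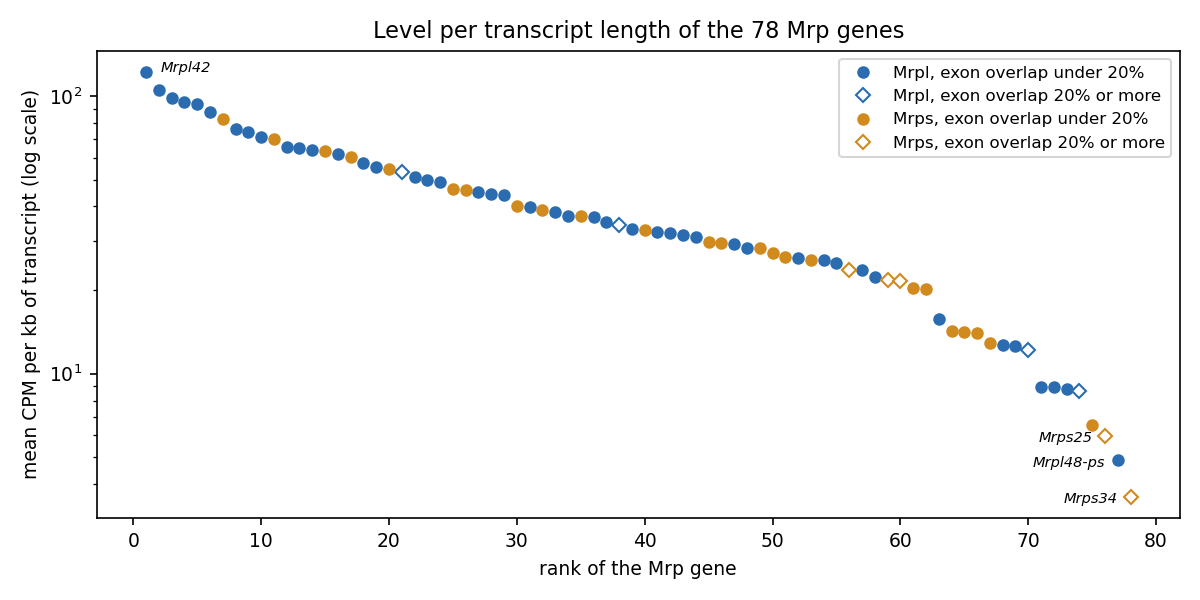
The 78 Mrp genes ranked by mean CPM per kb of transcript (log axis); blue marks Mrpl, orange Mrps, and open diamonds genes with at least 20% of exon bases shared with another gene. Mrpl42 is highest at 121.9 and Mrps34 lowest at 3.61 CPM per kb.

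Genes that act with the mitochondrial ribosome had no calls in either fit. Of 71 genes in 5 lists (5 ribosome proteins with other symbols such as Dap3 and Ptcd3, 13 translation factors, 24 assembly factors, 20 aminoacyl-tRNA synthetases and 9 genes of mitochondrial DNA maintenance and transcription), limma called 0 with 8 libraries and 0 without control 1. Over all genes 6.81% and 11.3% were called. At an unadjusted p under 0.05 there were 6 and 9 of the 71, against 23.7% and 28.3% of all genes. Their median log2 fold change was -0.023 with 8 libraries, in a range from -0.33 to 0.27, and 0.004 without control 1. Of 9 regulators of mitochondrial biogenesis limma called 0 in either fit, with 2 and 3 at an unadjusted p under 0.05, and 1 lower with the trend on length and GC content removed.

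The mRNAs that this ribosome translates were also not called: 0 of the 10 mitochondrially encoded mRNAs in the table passed limma's test in either fit, and 0 had an unadjusted p under 0.05. Their summed level was 6861, 7089, 10940 and 6875 CPM in controls 1 to 4 and 5880, 7001, 6732 and 8465 CPM in the induced libraries. Control 3 was the highest and induced 4 the next, so these RNAs varied between libraries in an order unlike that of the Mrp genes. Their median log2 fold change was -0.15 with 8 libraries and -0.22 without control 1. The mRNA of mt-Co1, a subunit of cytochrome c oxidase, lay at 2634 to 4363 CPM in the controls and 2464 to 3264 CPM in the induced libraries. The levels of mt-Co2, mt-Co3 and mt-Atp6 stood at 0.752 to 3.51 CPM, and they are uncertain, since mitochondrial DNA has near-identical copies in the nuclear genome; the part of such copies was not tested.

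Among 16 import genes, limma called 0 higher and 1 lower with 8 libraries, where 6.81% of all genes were called. Without control 1 it called 1 higher and 1 lower, where 11.3% of all genes were called. Timm21, a part of the inner-membrane import machinery, was called lower in both fits. It lay at 46.4, 45.6, 41.0 and 39.9 CPM in controls 1 to 4 and at 33.4, 33.3, 34.5 and 33.5 CPM after induction, so the groups did not overlap. Its log2 fold change was -0.36 with 8 libraries (limma adjusted p = 0.0252) and -0.32 without control 1 (limma adjusted p = 0.0194). It was called in 3 of 8 fits that left out 1 library, and lost its call without control 2 or without any 1 of the induced libraries. Tomm22, the central receptor of the outer-membrane import pore, was called higher without control 1 only, at a log2 fold change of 0.20 (limma adjusted p = 0.0499), and had 0.11 with 8 libraries (limma adjusted p = 0.487). With control 1 and any 1 further library left out Tomm22 was called in 0 of 7 fits, with limma's adjusted p from 0.0661 to 0.128, and it was not called without control 1 under median-of-ratios (limma adjusted p = 0.109) or upper quartile scaling (limma adjusted p = 0.125).

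The mitochondrial and integrated stress response is the programme that cells raise when mitochondrial translation fails, through the factor Atf4. Among 19 of its genes that were measured, 1 was called higher and 3 lower with 8 libraries, where 4.55% of all genes were called higher and 2.26% lower. Without control 1 there were 2 higher and 3 lower, against 7.66% and 3.68% of all genes. With the trend on length and GC content removed, 1 was called higher and 7 lower with 8 libraries, where 11.2% of all genes were called, and 1 higher and 5 lower without control 1, where 10.8% were called. Trib3, a pseudokinase induced by Atf4, lay at 9.17, 9.32, 7.73 and 8.82 CPM in controls 1 to 4 and at 13.5, 14.6, 13.1 and 11.1 CPM in the induced libraries, with no overlap. It rose by 0.57 on the log2 scale with 8 libraries (limma adjusted p = 0.022) and by 0.60 without control 1 (limma adjusted p = 0.0179).

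The 3 genes called lower in both fits without that correction encode enzymes of amino acid synthesis that Atf4 is known to raise, so the called members of this list did not move in 1 direction. Phgdh, the first enzyme of serine synthesis, lay at 212.8 to 292.6 CPM in the controls and 167.2 to 186.5 CPM in the induced libraries, and its log2 fold change was -0.49 with 8 libraries (limma adjusted p = 0.015). Psat1, the next enzyme of that path, had -0.38 (limma adjusted p = 0.0395), and Pycr1, an enzyme of proline synthesis, had -0.42 (limma adjusted p = 0.0389). All 3 were also called without control 1. When 1 library was left out in turn, Trib3 was called in 4, Phgdh in 5, Psat1 in 3 and Pycr1 in 2 of 8 fits. All 4 genes lost the call without control 2, induced 1 or induced 2; Trib3, Psat1 and Pycr1 also lost it without induced 3, Psat1 and Pycr1 without induced 4, and Pycr1 without control 4. Sesn2, the sensor protein sestrin, chosen after its values were seen, was the second gene called higher without control 1, at 0.28 (limma adjusted p = 0.0176).

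**Figure D5:**
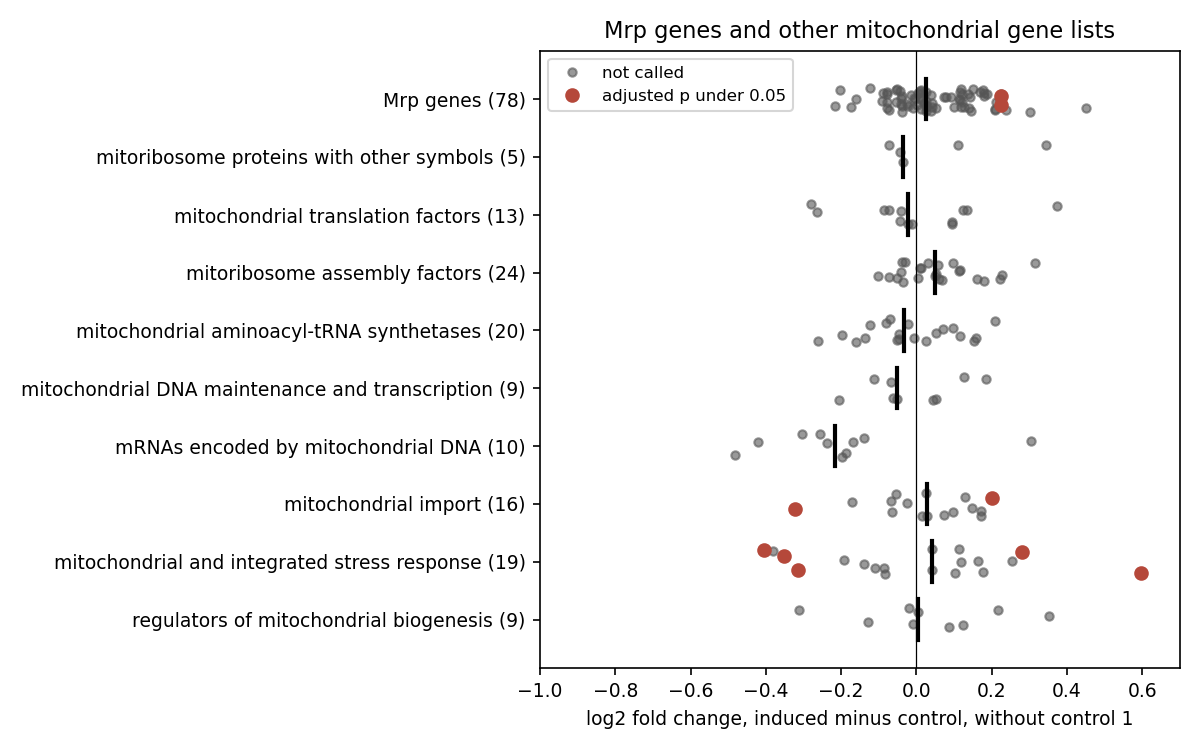
Log2 fold changes without control 1 for the Mrp genes and 9 other mitochondrial lists, 1 point per gene, with the number of genes in brackets, medians as black bars and genes with an adjusted p under 0.05 in red. The Mrp genes centre on 0.026, and the called genes of the other lists lie in import and in the stress response.

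Many Mrp genes share a start region with a neighbour that is read the other way. Of the 77 protein-coding members, 26 (33.8%) have the start of another protein-coding gene on the opposite strand within 1000 bases, against 13.3% of 13671 protein-coding genes in the table. Mrpl46 and Mrps11, of the large and the small subunit, start 412 bases apart and are each other's neighbour. The 26 members had a median log2 fold change of -0.026 with 8 libraries and 0.038 without control 1, and their 26 neighbours -0.063 and -0.008. Of those 26 neighbours 1, the condensin gene Ncapd2 beside Mrpl51, was called in both fits, where 6.81% and 11.3% of all genes were called.

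Promoter sequences from RefSeq (GRCm38.p6, 250 bases before to 50 bases after the start) were found for 68 members, with 74 promoters in all. On both strands, the letters CCGGAAG, a core of ETS factor sites such as those of GABPA, were in 33.8% of the Mrp promoters, against 15.8% of promoters of all genes in the table and 8.9% of all promoters. The letters AAGATGGCG, a site of YY1, were in 10.8%, against 2.7% and 1.4%. The palindromic site of NRF1, whose letters are the capitals in the Mrpl32 promoter, was in 4.1%, against 1.9% and 1.0%. At least 1 of the 3 was in 45.9%, against 19.4% and 10.8%; such a match is a description of the letters only. None of the 3 motifs contains another. Promoters of 3 members show these arrangements beside that of Mrps2, and capitals mark the motif letters. Mrpl43 (chr19:45006393-45006692, minus strand) holds the ETS letters at positions -56 and -12 from the start. Mrps27 (chr13:99344536-99344835, plus strand) holds them on the opposite strand at -48 and the YY1 letters at 15, and Mrpl32 (chr13:14612988-14613287, minus strand) holds the NRF1 letters at -87. Mrps2 (chr2:28467816-28468115, plus strand), shown because it was called, holds none of the 3.
Mrpl43: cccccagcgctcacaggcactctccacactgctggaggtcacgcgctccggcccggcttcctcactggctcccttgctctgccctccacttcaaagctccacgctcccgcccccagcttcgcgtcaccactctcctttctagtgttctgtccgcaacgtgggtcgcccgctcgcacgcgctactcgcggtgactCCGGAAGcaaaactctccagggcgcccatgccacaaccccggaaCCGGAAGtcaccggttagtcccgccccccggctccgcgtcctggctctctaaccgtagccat
Mrps27: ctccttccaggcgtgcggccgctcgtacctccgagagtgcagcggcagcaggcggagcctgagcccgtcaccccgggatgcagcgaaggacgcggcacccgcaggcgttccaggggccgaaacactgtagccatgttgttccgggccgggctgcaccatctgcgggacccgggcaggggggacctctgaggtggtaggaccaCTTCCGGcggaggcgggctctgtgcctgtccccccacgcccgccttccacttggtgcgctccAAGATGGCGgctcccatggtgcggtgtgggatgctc
Mrpl32: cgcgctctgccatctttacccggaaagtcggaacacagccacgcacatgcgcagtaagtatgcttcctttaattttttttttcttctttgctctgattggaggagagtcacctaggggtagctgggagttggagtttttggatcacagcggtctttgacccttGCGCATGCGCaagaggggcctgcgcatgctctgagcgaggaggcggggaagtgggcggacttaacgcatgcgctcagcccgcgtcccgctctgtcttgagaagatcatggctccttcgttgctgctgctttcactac
Mrps2: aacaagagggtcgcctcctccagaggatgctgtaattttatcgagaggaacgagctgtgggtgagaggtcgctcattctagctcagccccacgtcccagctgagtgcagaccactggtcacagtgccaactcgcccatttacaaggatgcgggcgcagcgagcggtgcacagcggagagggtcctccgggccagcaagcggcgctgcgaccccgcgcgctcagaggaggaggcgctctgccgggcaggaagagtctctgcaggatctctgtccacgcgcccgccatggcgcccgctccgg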

How the data were processed

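The authors deposited 1 table of gene values for the 8 libraries; per the submitters' processing notes STAR 2.5.3a, HTSeq 0.9.1, edgeR 3.20.1 and build mm10 were named, without role or order. The deposited values are whole-number scores, reads scaled to a common total per library and rounded up, and not raw counts: they sum to 19933345 to 19963951 in each library, and at least 99.61% of a library's values are whole multiples of 1 step, from which reads were recovered. Decimal commas split cells in the deposited table, so each line was joined and checked against the authors' CPM cells; all 14954 lines matched, 1 of them (Bcl6) after its cells were moved. CPM is the value per 1000000 of the library's total.

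Tests used limma 3.58.1 in R 4.3.3 (trend, on log2(value + 1), groups of 4) over all genes with no filter and Benjamini-Hochberg adjustment; a gene was called at an adjusted p under 0.05. Fold changes therefore refer to log2(value + 1), which understates changes of low genes. Lengths and exon overlaps come from GENCODE vM21 (GRCm38, the same assembly as mm10), with a transcript of median length per gene. The fit was also run on simulated counts with known changes. The members and gene lists were chosen with earlier results of these data known. Named members were those called in either fit, the 6 highest and 6 lowest fold changes in each fit, and the 4 highest and 4 lowest levels per length; of the other lists, up to 4 called genes each. Alternatives were other pseudocounts, scalings, filters, thinned reads, array weights, length and GC trends, left-out libraries and a replicate block. The authors' statistics columns were not used.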

Additional observations from a re-analysis of the deposited data

Results flagged for a closer look

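Of 58 groups of 4 libraries examined, 7 had a library whose gap to its nearest neighbour was, as a share of the group's range, above Dixon's 95% critical value; chance flags about 1 in 20 groups. In the controls, control 1 was the one far above the others in 4 Mrp genes, at 77.8 CPM for Mrpl10, 68.8 CPM for Mrpl38, 49.9 CPM for Mrps22 and 34.8 CPM for Mrps26. In the induced group, induced 1 was far above the others for Mrpl30, at 68.7 CPM. Induced 3 was flagged as the highest for Phgdh at 186.5 CPM and for Timm21 at 34.5 CPM. For Timm21 the other induced libraries were nearly equal, so the gap was small in CPM.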

How the results depend on the processing

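With all 8 libraries, no Mrp gene was called in either direction under either other pseudocount (0.1 and 10), scaling by median-of-ratios or upper quartiles, a floor of 100 on the mean scaled reads, reads thinned to one total, or the replicate block. Leaving out 1 library in turn gave 0 to 2 genes called higher, the 2 without control 1, 0 called lower, and a median log2 fold change of -0.114 (control 4) to 0.026 (control 1). Array weights gave 2 called higher (Mrps2 and Mrpl38) and 1 lower (Mrpl50), and with the trend on length and GC removed 1 was called lower, Mrpl23, also with the replicate block; the cause was not tested. Without control 1, the 2 called higher became 0 when scaled by median-of-ratios, 0 by upper quartiles, 0 with the replicate block and 1 (Mrps2) with the trend taken off, and leaving out 1 more library gave 0 to 3 (Mrpl10 was added without induced 4); the cause was not tested. These further fits, other than median-of-ratios scaling and the trend, were chosen after seeing the data. Without control 1 the import list had 1 called higher in place of 0, and the stress response list 2 in place of 1. With the trend removed, an alternative for these lists chosen after seeing the data, 7 stress response genes were called lower in place of 3 (5 without control 1), 1 biogenesis regulator in place of 0 (1 without control 1), 2 pluripotency markers in place of 1 (2 without control 1) and 2 fibroblast markers in place of 0. Over all genes, 681 higher and 338 lower calls became 855 and 819 with the trend taken off, 536 and 424 by median-of-ratios, 501 and 474 by upper quartiles, and 1643 and 864 with array weights. No called value changed sign; a gene called under neither setting was not read for its sign.

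Differentiation numbers were not shown to pair the samples: deviations of same-numbered libraries correlated at 0.03, 0.01, -0.03 and 0.37. The paired fit with the replicate block called 0 Mrp genes in either direction, with a median of -0.067, and 531 higher and 296 lower over all genes; Timm21 then had a limma adjusted p of 0.054, and without control 1 the block gave 0.0515 for Timm21, 0.0837 for Mrps2 and 0.0983 for Mrpl38. At 9418864 to 15022994 reads per library, Mrps34 (13 to 75 reads per library) and Mrpl48-ps (22 to 45) rest on few reads.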
